A study of Mus musculus with 8 samples.

Results

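The genes examined here were 9 targets of BMP signalling, chosen by symbol and with earlier results of these data known. They were the Id genes Id1, Id2 and Id3 and the homeobox genes Msx1 and Msx2. The others were the GATA factor genes Gata2 and Gata3 and the inhibitory SMAD genes Smad6 and Smad7. These 9 were among the 18300 genes named on the array and had 12 of its 45281 probes. A probe was kept when its detection p-value, the array software's estimate that a signal is background, was under 0.05 on at least 2 of the 8 arrays. With the brightest probe taken for each gene, 7 of the 9 genes were among the 14103 features tested, of which 8933 were named. Msx2 and Smad7 were detected on 0 arrays.

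The arrays measured RNA of mouse embryonic stem (ES) cells of the R1 line, an FGF4-/- derivative whose strains are given as 129X1/SvJ and, in the labels' spelling, 129S1/SV-+p+Tyr-cKitlSl-J/+. All cells, controls included, had spent the night before treatment in N2B27, a serum-free medium, with BMP4 at 10 ng/ml, so no group without BMP4 was measured. The labels do not say whether BMP4 stayed in the medium afterwards. By day 3 there were 4 groups of 2 arrays. The first had FGF4 at 20 ng/ml and an shRNA against Mp1 (shMp1Lib on one array, shMP1G on the other), the second FGF4 at 20 ng/ml and a control shRNA, the third LIF at 10 u/ml and a control shRNA, and the fourth a control shRNA with no growth factor. Each control group had 1 array with shRnd1 and 1 with shRnd2, according to the sample titles, although a treatment note gives Rnd1 for both LIF samples. Mp1 is the Lamtor3 gene product, a scaffold for MEK1 and ERK1, and the series asks what it does in the response of these cells to FGF4. Whether the arrays within a group came from separate cultures is not stated, so each p-value reflects only how far these samples lay apart, which may be technical.

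BMP ligands bind serine/threonine kinase receptors that phosphorylate SMAD1, SMAD5 and SMAD9, which enter the nucleus with SMAD4 and act at GC-rich and GTCT-type DNA elements. The Id genes are among the best known direct targets, and their products are helix-loop-helix proteins without a DNA-binding region that sequester E-proteins. In mouse ES cells BMP and its Id targets are known to hold back neural differentiation when LIF is present. MSX1 and MSX2 are homeodomain repressors, GATA2 and GATA3 are zinc finger activators used in trophoblast and surface ectoderm, and SMAD6 and SMAD7 are induced by the pathway and feed back on it.

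Upstream sequences of Id2, Id3, Msx1 and Gata2, which differed with FGF4 in the results that follow, are shown because SMAD proteins act through short elements in DNA near their targets. They are the 250 bases before the annotated start of each gene in RefSeq's GRCm38.p6 annotation, 5′ to 3′ on the gene's strand. Capitals mark GGCGCC, a GC-rich SMAD element that reads the same on both strands, and GTCT or its reverse complement AGAC, the SMAD box. Id2 lies at chr12:25096093-25096342 on the minus strand, Id3 at chr4:136143572-136143821 on the plus strand, Msx1 at chr5:37824586-37824835 on the minus strand and the more upstream start of Gata2 at chr6:88193641-88193890 on the plus strand.
Id2: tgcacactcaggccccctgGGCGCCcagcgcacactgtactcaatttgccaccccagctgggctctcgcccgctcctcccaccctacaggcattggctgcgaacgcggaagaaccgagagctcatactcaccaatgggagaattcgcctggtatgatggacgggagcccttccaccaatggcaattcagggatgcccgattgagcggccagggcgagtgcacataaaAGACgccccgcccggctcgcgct
Id3: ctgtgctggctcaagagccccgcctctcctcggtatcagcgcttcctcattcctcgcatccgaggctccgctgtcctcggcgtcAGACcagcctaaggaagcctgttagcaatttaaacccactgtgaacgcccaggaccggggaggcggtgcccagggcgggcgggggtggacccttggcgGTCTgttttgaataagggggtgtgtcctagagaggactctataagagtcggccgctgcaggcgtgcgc
Msx1: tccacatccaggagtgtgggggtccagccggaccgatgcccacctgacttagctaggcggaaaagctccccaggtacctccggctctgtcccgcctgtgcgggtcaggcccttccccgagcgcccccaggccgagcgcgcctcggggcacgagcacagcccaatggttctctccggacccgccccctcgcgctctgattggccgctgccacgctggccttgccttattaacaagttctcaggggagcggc
Gata2: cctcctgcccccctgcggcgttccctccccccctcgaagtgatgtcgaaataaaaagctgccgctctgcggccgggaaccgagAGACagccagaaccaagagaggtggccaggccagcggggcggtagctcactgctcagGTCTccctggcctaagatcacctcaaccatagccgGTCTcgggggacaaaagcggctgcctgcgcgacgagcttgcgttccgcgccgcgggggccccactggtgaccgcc

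Upstream sequences of 7 of the 9 genes were used. Id1 had no entry, and none was used for Smad7. GGCGCC was present in 9.59% of 32851 upstream sequences of all genes, and GTCT on either strand in 82.86%. The Id2 window held 1 GGCGCC, beginning 231 bases before the start, and 1 GTCT-type match at 23 bases. Id3 had 0 and 2 matches to GGCGCC and GTCT, Msx1 had 0 and 0, Msx2 had 0 and 1, Gata3 had 1 and 0, and Smad6 had 0 and 1. For Gata2 the counts were 0 and 3 at the start shown and 1 and 2 at a second annotated start. The GC content of the members' windows was 61.6% to 74.0%, against a median of 52.4% over all windows. These matches are descriptions of letters in a short window, and no binding was measured here.

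Between 15375 and 17813 probes were detected per array, and precision is limited by there being 8 arrays. Pou5f1, which marks pluripotent cells, had a normalized log2 intensity of 13.6 to 14.1 on the 8 arrays, while 0 of 5 mesoderm markers and 1 of 6 feeder fibroblast markers (Thy1) were detected. Of 8 pluripotency markers 5 had a named probe, and 4 were detected on each array. Esrrb did not pass the detection filter, and Sox2, Nanog and Zfp42 had 0 named probes. The knockdown could not be checked: the single named probe of Lamtor3 was not well above background on any of the 8 arrays, with detection p-values of 0.57 or more. Socs3, which LIF induces through STAT3, had a log2 intensity of 8.21 and 8.04 with Mp1 shRNAs, 8.17 and 7.91 with FGF4 and control shRNAs, 7.67 and 7.64 on the arrays labelled LIF, and 11.04 and 11.01 on those labelled no growth factor. That order goes against the labels of the last groups, so both are named by their labels throughout, and the direction of any difference from either rests on those labels. The arrays of the Mp1 group differed from each other more than those of other groups: 28.5% of the features differed by over 1.5-fold between shMp1Lib and shMP1G, against 5.65% between the FGF4 control arrays, 12.2% between the LIF arrays and 3.96% between the arrays without factor.

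**Figure D1:**
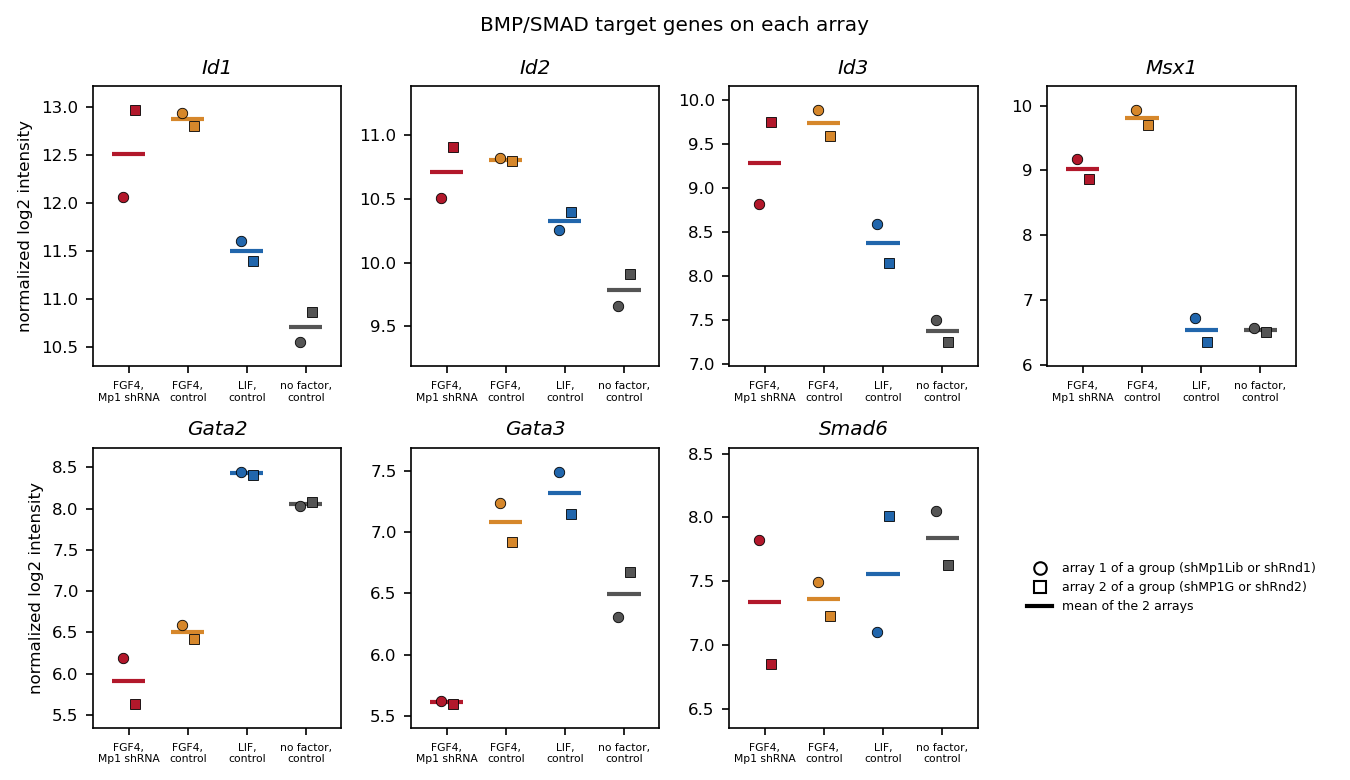
Normalized log2 intensity (vertical axis, one panel per gene with its own range) of the 7 measured BMP/SMAD target genes on each of the 8 arrays, grouped along the horizontal axis. Circles and squares are the 2 arrays of a group and bars their mean. The means of Id1, Id2 and Id3 are highest with FGF4 and control shRNAs and lowest on the arrays labelled no growth factor, Msx1 is high only on the 4 FGF4 arrays, and Gata2 is low on those arrays.

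The Id genes, Msx1 and Gata2 separated the control shRNA cells given FGF4 from those labelled no growth factor. Msx1 was 9.74-fold, Id3 5.17-fold, Id1 4.48-fold and Id2 2.03-fold higher with FGF4, and Gata2 was 2.94-fold lower. Gata3 and Smad6 did not pass the test. Thus 4 of 7 measured genes were higher and 1 lower, where 15.6% of all 14103 features were called, 7.84% higher and 7.79% lower. The median difference of the 7 genes was 1.02 log2 units, against -0.02 over all features. In RNA from a whole culture, more cells that express a gene and more RNA per cell cannot be told apart.

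Id1, the best known of the Id targets of BMP, was detected on all 8 arrays (probe ILMN_2672190). Its intensity before normalization was 4747 with shMp1Lib and 8493 with shMP1G, 9417 and 6789 with FGF4 and the control shRNAs, 2294 and 2730 on the arrays labelled LIF, and 1512 and 1998 on those labelled no growth factor. All 4 FGF4 arrays lay above all 4 others. The normalized log2 intensity averaged 12.87 ± 0.10 with FGF4 and control shRNAs and 10.71 ± 0.22 with no growth factor (SD, n = 2 arrays each). The difference was 2.16 log2 units (SE 0.29, 95% interval 1.49 to 2.83, adjusted p = 0.00167, limma's moderated test with Benjamini-Hochberg adjustment over all features, as for all adjusted p-values here). The 95% intervals are per gene and not adjusted for the number of features.

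Id3, whose product also binds E-proteins, had intensities of 674 and 960 with Mp1 shRNAs, 1111 and 816 with FGF4 and control shRNAs, 297 and 317 on the LIF arrays, and 229 and 214 on the arrays without factor (probe ILMN_2687169). The 3 groups of control arrays did not overlap and came in the order FGF4, LIF, no growth factor, as for Id1. On the log2 scale Id3 averaged 9.74 ± 0.20 with FGF4 and 7.37 ± 0.17 with no growth factor, a difference of 2.37 (SE 0.32, interval 1.64 to 3.10, adjusted p = 0.0016). The calls of Id1 and Id3 in this comparison were kept in each of the 18 other settings tried, which include leaving out each array in turn.

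Id2 had 3 probes, all detected on 8 of 8 arrays. The brightest (ILMN_1228557) read 1864 and 2046 with Mp1 shRNAs, 2138 and 1797 with FGF4 and control shRNAs, 875 and 1353 on the LIF arrays, and 833 and 1052 on the arrays without factor. In these intensities the LIF and no-factor arrays interleave, while the FGF4 arrays are above both. After normalization it averaged 10.81 ± 0.02 with FGF4 and 9.79 ± 0.18 with no growth factor, and the difference of 1.02 (SE 0.20, interval 0.56 to 1.48) had an adjusted p of 0.0105. It missed the threshold without the FGF4 array of shRnd1 (adjusted p = 0.0788) or of shRnd2 (0.0725), or without the no-factor array of shRnd1 (0.101). In a fit that kept every probe, ILMN_1236868 differed by 1.18 (adjusted p = 0.0376) and ILMN_2887239 by 0.89 (adjusted p = 0.0358), so the 3 Id2 probes had the same direction.

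**Figure D2:**
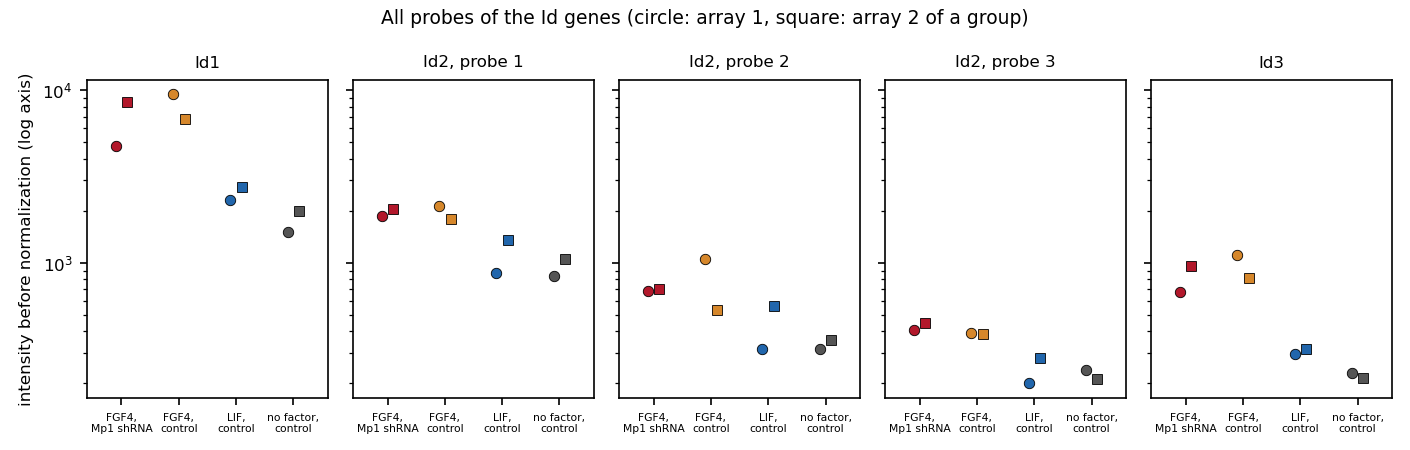
Intensity before normalization (vertical log axis, shared) of all 5 probes of Id1, Id2 and Id3 on the 8 arrays, grouped along the horizontal axis. Each point is 1 array. The 4 FGF4 arrays of Id1 and Id3 lie above the other 4, and the second Id2 probe has a wide spread between the FGF4 control arrays, 1054 and 532.

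Msx1 had the largest difference among the 7 genes. Its detected probe (ILMN_1246173) read 838 and 555 with Mp1 shRNAs, 1144 and 874 with FGF4 and control shRNAs, 123 and 132 on the LIF arrays, and 147 and 152 on the arrays without factor. Every FGF4 array was therefore above every array of the other groups, which lay close together. The log2 intensity averaged 9.81 ± 0.16 with FGF4 and 6.53 ± 0.04 with no growth factor, a difference of 3.28 (SE 0.21, interval 2.81 to 3.76, adjusted p = 5.98e-05), the 46th smallest p-value of all features. A further Msx1 probe (ILMN_1215278) was detected on 0 arrays, with intensities of 65.6 to 94.6. The only Msx2 probe (ILMN_2562502) read 67.8 to 97.7 and was also detected on 0 arrays, so nothing can be said of Msx2 beyond its signal being at background.

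Gata2, a factor of trophoblast and blood progenitors, ran the other way. Its intensity was 161 and 111 with Mp1 shRNAs, 169 and 144 with FGF4 and control shRNAs, 273 and 365 on the LIF arrays, and 303 and 332 on the arrays without factor (probe ILMN_2612283). All 4 FGF4 arrays were below all 4 others. On the log2 scale it averaged 6.50 ± 0.12 with FGF4 and 8.05 ± 0.04 with no growth factor, a difference of -1.55 (SE 0.21, interval -2.05 to -1.06, adjusted p = 0.00187). The calls of Msx1 and Gata2 were kept in all 18 other settings.

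Gata3, which is often expressed beside Gata2 in trophoblast, read 123 and 110 with Mp1 shRNAs, 227 and 179 with FGF4 and control shRNAs, 168 and 185 on the LIF arrays, and 133 and 163 on the arrays without factor (probe ILMN_1248843). The FGF4 control arrays were above the no-factor arrays, and the arrays of the Mp1 group were the lowest of all. With FGF4 against no growth factor the log2 difference was 0.59 (SE 0.22, interval 0.09 to 1.09, adjusted p = 0.117), which did not pass. Gata3 passed in 1 of the 10 settings that changed a processing step, with arrays weighted by their quality (adjusted p = 0.0348). That setting called 29.2% of all features, against 15.6% in the main fit. A p that misses the threshold does not show that levels were equal.

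Smad6, an inhibitor that keeps SMAD1 and SMAD5 from signalling, read 377 and 180 with Mp1 shRNAs, 259 and 209 with FGF4 and control shRNAs, 142 and 293 on the LIF arrays, and 307 and 260 on the arrays without factor (probe ILMN_3008748). In normalized log2 values the arrays of the Mp1 group were 0.97 apart and those of the LIF group 0.90, further than any pair of group means, which lay between 7.33 and 7.84. The FGF4 difference from no growth factor was -0.48 log2 units (SE 0.39, interval -1.37 to 0.41, adjusted p = 0.5). The probe of Smad7 (ILMN_2759660), the inhibitor that acts on all receptor SMADs, was detected on 0 arrays and read 54.8 to 76.2.

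**Figure D3:**
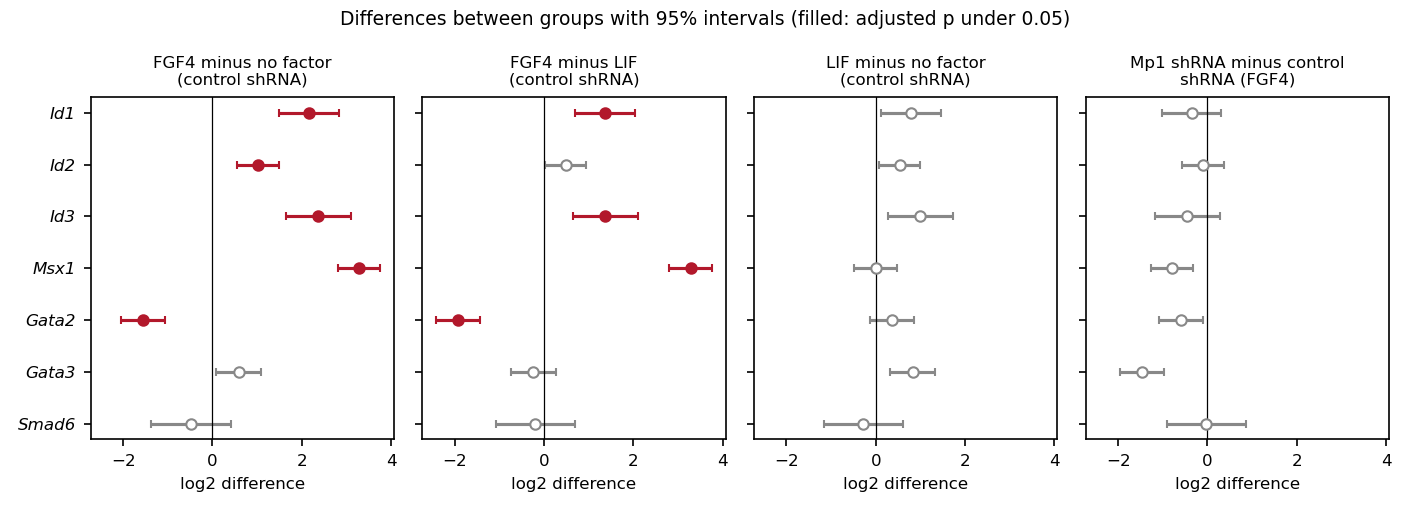
Log2 differences (horizontal axis) of the 7 measured genes in 4 comparisons, with 95% intervals as bars; filled red points have an adjusted p under 0.05. With FGF4 against no growth factor 5 genes are filled, with FGF4 against LIF 4, and with LIF against no growth factor and Mp1 against control shRNAs 0.

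Against the arrays labelled LIF, FGF4 with control shRNAs again gave higher Msx1, Id1 and Id3 and lower Gata2. This comparison shares the FGF4 arrays with the one above and its fit shares all 8 arrays, so both sets of values are given side by side and neither is a repeat of the other. Of the 7 genes 3 were higher and 1 lower, where 15.7% of the features were called, 7.97% higher and 7.71% lower, and the median difference was 0.48 log2 units, against -0.01 over all features. Msx1 averaged 9.81 ± 0.16 with FGF4 and 6.53 ± 0.26 with LIF, a difference of 3.28 (interval 2.81 to 3.76, adjusted p = 7.18e-05). Gata2 averaged 6.50 ± 0.12 with FGF4 and 8.43 ± 0.03 with LIF, a difference of -1.92 (interval -2.42 to -1.43, adjusted p = 0.000778).

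Both of these calls were kept in the 18 other settings, while those of the Id genes were not. Id1 averaged 12.87 ± 0.10 with FGF4 and 11.50 ± 0.15 with LIF, a difference of 1.37 (SE 0.29, adjusted p = 0.0157). Without one of the FGF4 control arrays or one of the LIF arrays, the adjusted p of Id1 was 0.108 (FGF4 shRnd1 left out), 0.0806 (FGF4 shRnd2), 0.0623 (LIF shRnd1) and 0.0795 (LIF shRnd2), and with no detection filter it was 0.056. Id3 averaged 9.74 ± 0.20 with FGF4 and 8.37 ± 0.31 with LIF, also 1.37 apart (SE 0.32, adjusted p = 0.022). Its adjusted p was 0.148, 0.0835, 0.0532 and 0.112 with the same arrays left out in the same order, and 0.0778 with no detection filter. Thus 2 genes, Msx1 and Gata2, remained called when no detection filter was used.

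Id2 at 0.48 (interval 0.02 to 0.94, adjusted p = 0.161), Gata3 at -0.24 (adjusted p = 0.532) and Smad6 at -0.20 (adjusted p = 0.793) did not pass between FGF4 and LIF. The arrays of Id2 did not overlap in the normalized values, with 10.82 and 10.80 for FGF4 against 10.26 and 10.40 for LIF. Those of Gata3 and Smad6 did, and with arrays scaled by their medians in place of quantiles both differences turned positive (0.07 for Gata3 and 0.10 for Smad6), in a scaling that moved the median of all features to 0.21.

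Between the arrays labelled LIF and no growth factor, 0 of the 7 genes passed the limma test, where 0.00709% of the features did (1 of 14103) and 7.34% had an unadjusted p under 0.05. The LIF arrays of each Id gene lay above the no-factor arrays in normalized values. Id3 differed by 1.00 log2 units (interval 0.27 to 1.73, adjusted p = 0.548), Id1 by 0.79 (interval 0.12 to 1.46, adjusted p = 0.61) and Id2 by 0.54 (interval 0.08 to 1.00, adjusted p = 0.61). Gata3 differed by 0.83 (interval 0.33 to 1.33, adjusted p = 0.47), with normalized values of 7.49 and 7.15 with LIF against 6.31 and 6.67 with no growth factor. Gata2 was at 8.44 and 8.41 with LIF against 8.03 and 8.08 with no growth factor, a difference of 0.37 (adjusted p = 0.763). For these 5 genes the LIF arrays were above the no-factor arrays without overlap in normalized values, as they were for 23.4% of all features. Before normalization those of Gata2 and Id2 interleaved, and those of Id1, Id3 and Gata3 did not. The Gata2 difference ranged from 0.10 to 0.37 over the settings that changed a processing step. Msx1 had 6.71 and 6.35 with LIF against 6.56 and 6.50 with no growth factor, a difference of 0.00 (interval -0.48 to 0.48; -0.22 with arrays scaled by their medians, where the median of all features was -0.19), and Smad6 differed by -0.28 with overlapping arrays.

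The comparison of Mp1 with control shRNAs was made only in FGF4, because no group had Mp1 shRNAs without FGF4. An effect of the shRNAs that does not depend on FGF4 therefore cannot be told apart from a part in the response to FGF4. Gata3, Msx1 and Gata2 had lower normalized values on both Mp1 arrays, and Id1, Id2 and Id3 on the shMp1Lib array alone. In the test 0 of 7 genes passed with limma, where 0.0993% of all features did (14 of 14103) and 14.4% had an unadjusted p under 0.05. All 7 differences were below 0 with quantile scaling of all 8 arrays. Smad6 was at 0.17 with arrays scaled by their medians, which moved the median of all features to 0.17, and with 1 array left out Id1, Id2, Id3 and Smad6 reached 0.10, 0.10, 0.015 and 0.47. The median of the 7 genes was -0.46 log2 units, against 0.05 over all features and -0.05 over the named ones. Of the named features 55.6% were below 0, and of all features 44.9%. In normalized values the arrays of 3 genes, Msx1, Gata2 and Gata3, did not overlap between the groups and were lower with Mp1 shRNAs. The same held for 18.6% of all features.

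Gata3 had the largest of these differences. Its normalized log2 intensity was 5.63 and 5.60 with shMp1Lib and shMP1G, against 7.24 and 6.92 with the control shRNAs, and its detection p-values with Mp1 shRNAs were 0.01 and 0.03, close to background. The difference of -1.47 (SE 0.22, interval -1.96 to -0.97) had the 24th smallest p-value of the 14103 features but an adjusted p of 0.0729. Without the shMP1G array it was -1.45 with an adjusted p of 0.00911. In that setting, which leaves the group with 1 array and takes its spread from the other groups, 2862 features were called in all.

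Msx1 had 9.18 and 8.87 with Mp1 shRNAs against 9.93 and 9.70 with control shRNAs, a difference of -0.79 (SE 0.21, interval -1.27 to -0.32, adjusted p = 0.192). Gata2 had 6.19 and 5.64 against 6.59 and 6.42, a difference of -0.59 (interval -1.08 to -0.09, adjusted p = 0.298). For both genes the Mp1 arrays lay below both control arrays in normalized values. Before normalization Gata2 read 161 with shMp1Lib, above the 144 of the FGF4 control array of shRnd2.

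The Id genes differed between the Mp1 arrays. Id1 had a log2 intensity of 12.07 with shMp1Lib and 12.97 with shMP1G, against 12.95 and 12.80 with the control shRNAs, so one Mp1 array was below the control arrays and the other was not. Id3 had 8.81 with shMp1Lib and 9.75 with shMP1G, against 9.88 and 9.60, and Id2 had 10.51 and 10.91 against 10.82 and 10.80. The gap between the Mp1 arrays was 0.90 for Id1 and 0.94 for Id3, against 0.14 and 0.29 between the FGF4 control arrays.

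With both Mp1 arrays the differences from control were -0.36 for Id1 (interval -1.03 to 0.32, adjusted p = 0.542), -0.46 for Id3 (adjusted p = 0.482) and -0.10 for Id2 (adjusted p = 0.815). Without the shMp1Lib array they were 0.10 for Id1, 0.01 for Id3 and 0.10 for Id2, turning the direction. Without the shMP1G array Id1 was at -0.81 (adjusted p = 0.0367) and Id3 at -0.93 (adjusted p = 0.0368), both past the threshold in a setting with 2862 calls, where 29 features were called without shMp1Lib. Smad6 had 7.82 and 6.85 with Mp1 shRNAs against 7.49 and 7.23, a difference of -0.02 (interval -0.91 to 0.86).

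**Figure D4:**
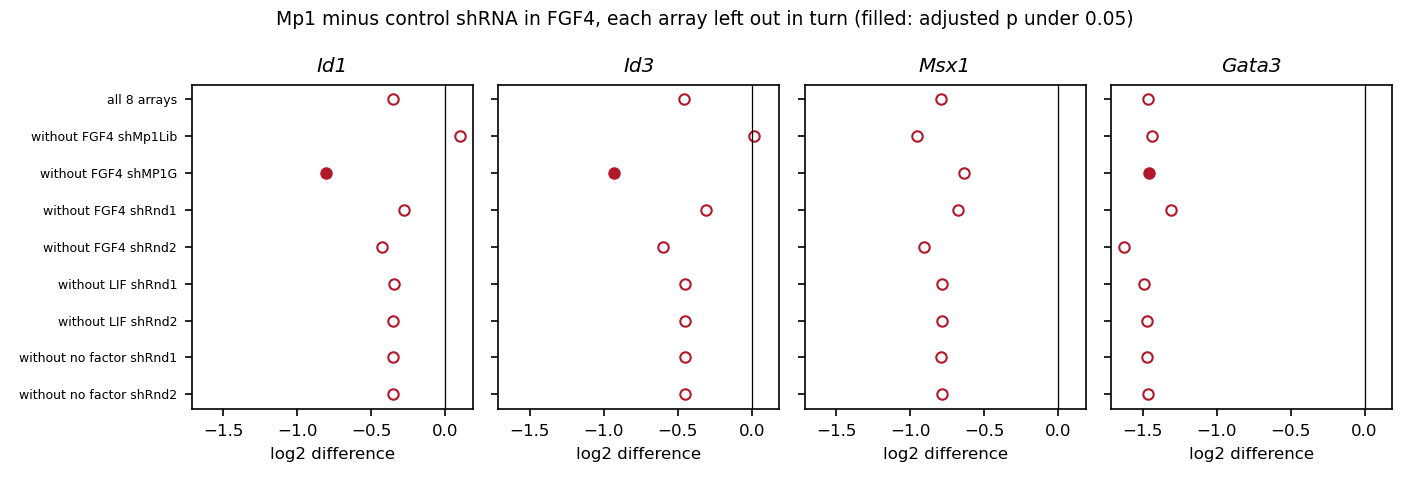
Log2 difference between Mp1 and control shRNAs in FGF4 (horizontal axis) for Id1, Id3, Msx1 and Gata3, with all 8 arrays and with each array left out in turn (rows). Filled points have an adjusted p under 0.05. Id1 and Id3 lie at -0.81 and -0.93 without shMP1G and just above 0 without shMp1Lib, while Msx1 and Gata3 are below 0 in every row.

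Set against the arrays labelled no growth factor, FGF4 with Mp1 shRNAs gave 4 genes higher (Msx1, Id3, Id1 and Id2) and 2 lower (Gata2 and Gata3), where 14.2% of the features were called, 8.12% higher and 6.09% lower. The Mp1 arrays are the same as in the comparison above, and the no-factor arrays the same as in the FGF4 comparison. Msx1 differed by 2.49 (adjusted p = 0.000268), Id3 by 1.91 (adjusted p = 0.00556), Id1 by 1.81 (adjusted p = 0.00487) and Id2 by 0.92 (adjusted p = 0.019). Gata2 differed by -2.14 (adjusted p = 0.000559) and Gata3 by -0.88 (adjusted p = 0.0316). The calls of Msx1 and Gata2 were kept in all other settings. Without the no-factor array of shRnd1 the adjusted p was 0.0567 for Id1, 0.156 for Id2 and 0.0789 for Gata3, and without that of shRnd2 it was 0.0609 for Id3, 0.077 for Id2 and 0.232 for Gata3. The Gata3 call was also lost without shMp1Lib (0.0639), FGF4 shRnd1 (0.0528) or FGF4 shRnd2 (0.0539), and in 6 of the settings that changed a processing step (0.054 to 0.104), and that of Id2 with only the 4 arrays compared (0.0872).

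Against the arrays labelled LIF, FGF4 with Mp1 shRNAs gave 2 genes higher, Msx1 and Id1, and 2 lower, Gata2 and Gata3, where 19.4% of the features were called, 11.1% higher and 8.35% lower. Msx1 differed by 2.49 (adjusted p = 0.000333), Gata2 by -2.51 (adjusted p = 0.000381) and Gata3 by -1.71 (adjusted p = 0.00174). The call of Id1 at 1.01 (adjusted p = 0.0451) was kept without shMp1Lib and lost without any 1 of the other 7 arrays (adjusted p = 0.0672 to 0.144), with no detection filter (0.115), with array weights (0.0868) and with only the 4 arrays compared (0.156). The calls of the other 3 genes were kept in every setting. Id3 at 0.91 had an adjusted p of 0.0767, and its difference ranged from 0.44 to 1.40 with 1 array left out. With arrays scaled by their medians its adjusted p was 0.00627. That scaling moved the median of all features to 0.39, and 3424 features were called, 2917 of them higher.

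Other genes of the pathway were examined in 6 lists of 70 genes, of which 28 were measured. With FGF4 against no growth factor in control shRNA cells 4 were higher and 1 lower, or 17.9% of the 28, and 15.6% of all features passed. With FGF4 against LIF 4 were higher and 0 lower (14.3%), with LIF against no growth factor 0 and with Mp1 against control shRNAs 0 passed. With Mp1 shRNAs 4 were higher and 2 lower than with no growth factor (21.4%, and 14.2% of all features), and 4 were higher and 1 lower than with LIF (17.9%, and 19.4% of all features). These counts include Zfp423 and Rgma, which passed the detection filter only through the arrays on which they were high and so had to differ. Of the 26 genes detected in both groups 3 were higher and 0 lower with FGF4 and control shRNAs against no growth factor (11.5%, and 13.2% of all features so detected), and likewise against LIF (11.5%, and 13.5%). With Mp1 shRNAs 3 of 26 were higher and 1 lower against no growth factor (15.4%, and 12.2%) and also against LIF (15.4%, and 17.7%). The 3 higher genes were Gdf1, Skil and Smurf1 in each of these comparisons. Skil and Smurf1 had 3 named probes each, Zfp423 had 2 and Gdf1 had 1. For genes of the pathway lists only the brightest probe that passed the filter was used. For Mp1 shRNAs against LIF the call of Skil was lost without the LIF array of shRnd2, and that of Smurf1 without the LIF array of shRnd1. Both were also lost with only the 4 arrays compared (adjusted p = 0.0751 for Skil and 0.0759 for Smurf1). Among the ligands, 4 of 13 were measured and Gdf1, a ligand of the activin/nodal branch that shares a transcript with Cers1, was called. It read 590 and 621 with Mp1 shRNAs, 718 and 579 with FGF4 and control shRNAs, 125 and 181 on the LIF arrays, and 146 and 148 on the arrays without factor, and was higher by 2.63 log2 units than with no growth factor (adjusted p = 0.000179) and by 2.20 than with LIF (adjusted p = 0.000496). Gdf1 was, like Msx1, high on all 4 FGF4 arrays. Bmp4 itself had 0 named probes.

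Of 11 receptors and coreceptors 7 were measured, and none of the type I and type II receptor genes passed with FGF4: Bmpr1a differed by 0.45 (adjusted p = 0.32) and Bmpr2 by 0.40 (adjusted p = 0.351). The coreceptor gene Rgma was detected only on the arrays without factor. It read 90.7 and 73.9 with FGF4 and control shRNAs, against 104 and 118 on the arrays without factor. It was at least 1.16-fold lower with FGF4, which is a description and no support for a change, and its adjusted p of 0.0348 was between 0.112 and 0.225 without any 1 of the 4 arrays compared. Of 8 SMADs and nuclear partners 5 were measured. Smad1, a BMP effector, differed by 0.38 (adjusted p = 0.274), Smad5 by -0.08 (adjusted p = 0.863) and Smad3 of the TGF-beta branch by -0.64 (adjusted p = 0.0807), and Smad4 had 0 named probes. Zfp423, a zinc finger partner of SMAD1 at BMP-responsive promoters, was detected only on the 4 FGF4 arrays. It read 156 and 134 with Mp1 shRNAs, 142 and 128 with FGF4 and control shRNAs, 71.1 and 82.1 on the LIF arrays, and 78.0 and 96.9 on the arrays without factor. As a description, it was at least 1.57-fold higher with FGF4 and control shRNAs than with no growth factor (adjusted p = 0.00408) and at least 1.47-fold higher than with LIF (adjusted p = 0.0029). These folds are lower bounds, set by the dimmest signals that stand above background on each array. Without the no-factor array of shRnd1 the adjusted p of Zfp423 against no growth factor was 0.0505.

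Of 22 antagonists and inhibitors 5 were measured. Skil, a corepressor that binds SMADs and is itself induced by TGF-beta signals, read 1311 and 1465 with Mp1 shRNAs, 1047 and 1138 with FGF4 and control shRNAs, 416 and 423 on the LIF arrays, and 295 and 266 on the arrays without factor. It was higher with FGF4 than with no growth factor by 2.12 log2 units (adjusted p = 0.000972) and than with LIF by 1.06 (adjusted p = 0.0263). Smurf1, a ubiquitin ligase for SMAD1 and SMAD5, was higher by 1.05 (adjusted p = 0.0076) and 0.87 (adjusted p = 0.0191) in the same comparisons. Both genes were high on the 4 FGF4 arrays. The Smurf1 call against no growth factor was lost without any 1 of the 4 arrays compared (adjusted p = 0.0554 to 0.0775), and those against LIF were lost without FGF4 shRnd1 (0.0795 for Skil, 0.114 for Smurf1) or FGF4 shRnd2 (0.179 and 0.111). Without LIF shRnd2 Skil had an adjusted p of 0.132, without LIF shRnd1 Smurf1 had one of 0.13, and Skil stood at 0.0517 without either no-factor array and at 0.0688 with no detection filter. Nog and Bambi, an extracellular trap for BMP and a pseudoreceptor, had 1 named probe each and were not measured.

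None of the 5 measured genes of the list of further BMP-responsive genes passed with FGF4 against no growth factor. Id4, the remaining Id gene, differed by -0.22, Hey1 by 0.22, Hes1 by -0.29, Dlx3 by 0.67 and Junb by -0.18. Of the genes lower with Mp1 shRNAs, Junb and Gdf3 were named after their values were seen. Junb, an AP-1 subunit gene, was lower than with no growth factor by a log2 difference of -1.07 (adjusted p = 0.0157). Its call was lost with only the 4 arrays compared (0.0501) and without the no-factor array of shRnd1 or shRnd2. Gdf3, a ligand gene, was lower than with LIF by a log2 difference of -0.82 (adjusted p = 0.0296). Its call was lost with only the 4 arrays compared (0.146), with array medians (0.0931) and with array weights (0.0747). It was also lost without any 1 of the arrays other than that of shMP1G. The E-protein genes Tcf3 and Tcf4, whose products the ID proteins bind, differed by -0.19 and -0.27 and did not pass.

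**Figure D5:**
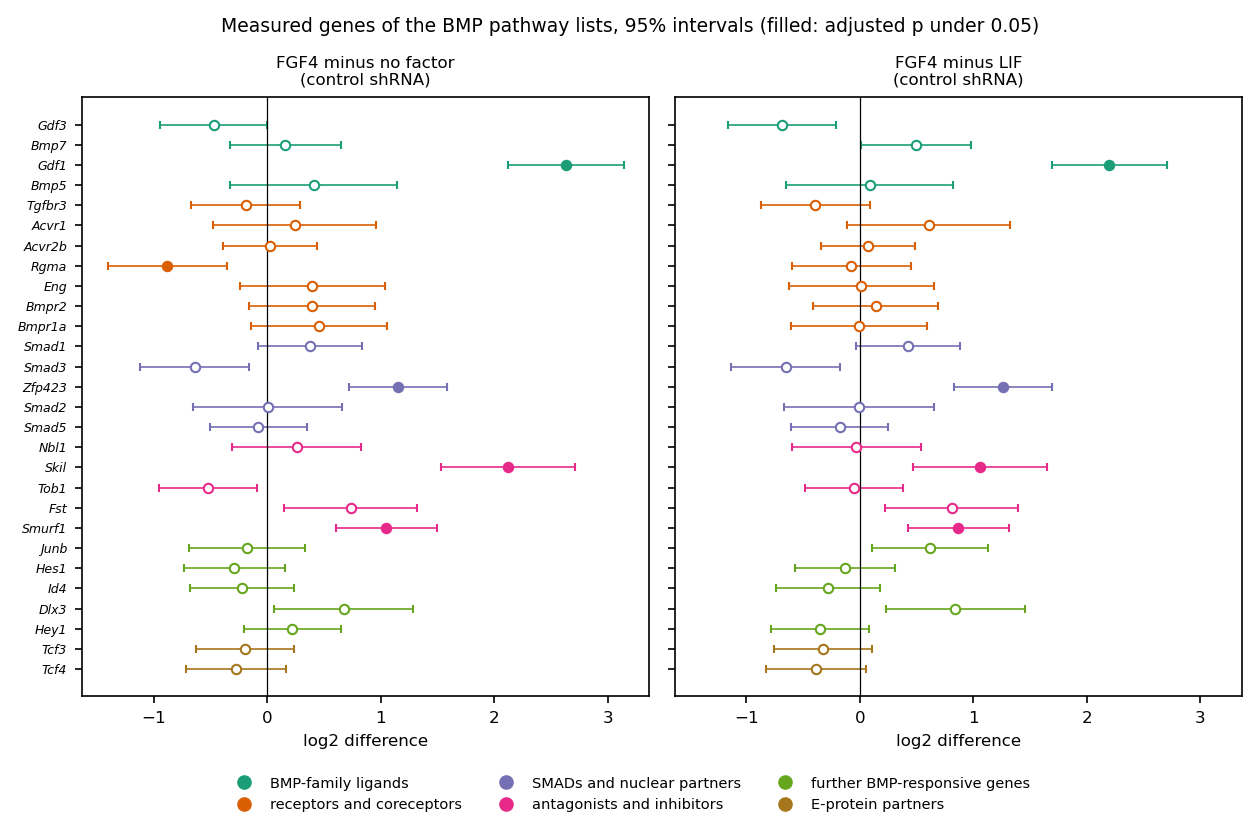
Log2 differences (horizontal axis) with 95% intervals for the 28 measured genes of 6 BMP pathway lists, with FGF4 against no growth factor and FGF4 against LIF in control shRNA cells. Colours are the lists and filled points have an adjusted p under 0.05; Gdf1, Skil, Zfp423 and Smurf1 are filled to the right of 0 in both panels and Rgma to the left in the first.

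Markers of other cell types moved along with some of these genes. Of 6 surface ectoderm markers 4 were measured, and with FGF4 against no growth factor the keratin genes Krt18 (3.10 log2 units) and Krt8 (2.96) and the transcription factor gene Tfap2a (2.38) were higher and Grhl3 (-2.59) was lower. Krt14 and Trp63, which define stratified epithelium, did not pass the detection filter. The summed normalized intensity of the list was 2122 and 2075 with Mp1 shRNAs, 4205 and 4160 with FGF4 and control shRNAs, 1163 and 889.5 on the LIF arrays, and 950.9 and 794.8 on the arrays without factor, with 3 to 4 of the 6 markers detected per array. As for Msx1, all 4 FGF4 arrays were above the others and the FGF4 control arrays were highest. On the FGF4 arrays most of the sum was Krt8 and Krt18, while Grhl3 went the other way. The part of surface ectoderm cells in the differences of Msx1 and the Id genes was not tested. Of 8 trophoblast markers 3 were measured (Tfap2c, Krt7 and Ascl2), and Cdx2, Eomes and Elf5 did not pass the filter. The summed intensity of the list, of which 2 to 4 markers were detected per array, was 2600 and 1361 with Mp1 shRNAs, 1993 and 1633 with FGF4 and control shRNAs, 2518 and 3002 on the LIF arrays, and 3035 and 3276 on the arrays without factor. Most of the sum was Tfap2c, which differed by -1.06 with FGF4 against no growth factor (adjusted p = 0.0706), while Ascl2, not well above background without factor, differed by 2.05 (adjusted p = 0.000709) and Krt7 by 0.69 (adjusted p = 0.071). The part of such cells in the differences of Gata2 was not tested. In the same comparison 2 of 4 measured pluripotency markers (Utf1 and Dppa4) and 1 of 3 trophoblast markers (Ascl2) were higher. Of 5 primitive endoderm markers 1 (Dab2) was higher, and 0 of 2 neural markers passed. Over all features 7.84% were called higher. Dab2 was detected only on the 4 FGF4 arrays, so it passed the filter only through arrays on which it was high and had to differ.

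Genes whose pattern over the 8 arrays was most like those of Id1 and Gata3 were listed by Pearson's r over all named features. For Id1 these were Pdlim2, 6430411K18Rik, Timp3, Auts2 and Id3, with r of 0.984 to 0.991. For Gata3 they were Ccdc163, Tefm, Cyp7b1, Ccdc28a and Bcdin3d, with r of 0.950 to 0.988. The 8 points fall into the 4 groups and share their arrays and normalization, so these values only order the genes.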

How the data were processed

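RNA of 8 samples was hybridised to Illumina arrays. The deposited non-normalized table lists 45281 probes with their linear intensity and detection p-value on each of the 8 arrays, per the file headers. The scanner software was not given in the sources used here. Decimal points were missing from 81.2% of the 362248 deposited intensities. They were put back from digit counts, for 222817 values with the help of the matching detection p-value; the rule was tested on simulated numbers. The authors' deposited value table also holds intensity values, of 42293 probes, and was used only to list probes with names, because values under one ID correlated at 0.126 to 0.177 between the tables. Ribosomal protein probes (96) had a median percentile of 99.0 in the non-normalized table and 57.1 in the value table, so the IDs of the non-normalized table were used. No per-sample column was left without a sample (0 columns).

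Symbols came from the platform annotation: 32245 probes had 1, 17 had several and 13019 had none here. In limma 3.58.1 (R 4.3.3, statmod 1.5.0), intensities were background corrected by normexp with negative controls inferred from detection p-values, an offset of 16 was added, and arrays were quantile normalized and put on the log2 scale (neqc). A filter on detection p-values and the brightest probe per symbol gave the 14103 features. The 4 group means were estimated in one fit of the 8 arrays by lmFit and eBayes (4 residual and 4.18 prior degrees of freedom), and 6 two-sided comparisons were adjusted over the features by Benjamini and Hochberg's method, with calls at 0.05. A gene of the pathway lists not detected on any array of a group was given as a bound. This was the bright group's mean over the higher of the lowest signal well above background and the dim signal. Markers of other cell types were given as plain differences.

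Samples were grouped by their titles. By their titles, same-numbered arrays of the control groups carried the same control shRNA, so array numbers pair these samples by shRNA. The main fit left this pairing out. Same-numbered arrays of the control groups deviated from their group means with correlations of -0.083, -0.07 and 0.043. Alternatives changed the background correction, normalization, offset, filter, probe choice, variance prior, array weights and arrays in the fit. The genes and lists were chosen with earlier results of these data known. The text names all 9 genes with every probe, and of each pathway list up to 4 genes past the threshold in the 4 comparisons other than Mp1 shRNAs against no growth factor or LIF, with a few fixed examples. Upstream sequences were from RefSeq (GRCm38.p6).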

Additional observations from a re-analysis of the deposited data

How the results depend on the processing

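Each value was recomputed under up to 18 other settings. Of the differences past the threshold, 168 recomputed values that changed a processing step kept direction and side of the threshold and 12 missed it, and with 1 array left out 125 kept it and 27 missed it. Of those not past it, 212 and 168 were unchanged in this sense, 2 and 4 passed, and 5 and 12 changed sign. Array medians in place of quantiles turned 5 differences: Msx1 to -0.22 for LIF against no growth factor, Gata3 to 0.070 and Smad6 to 0.10 for FGF4 against LIF, and Smad6 to 0.17 for Mp1 against control shRNAs and 0.27 for Mp1 shRNAs against LIF. The cause was not tested, and this scaling moved the median of all features to between -0.19 (LIF against no growth factor) and 0.39 (Mp1 shRNAs against LIF).

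With 1 array left out, differences that turned ranged from -0.19 to 0.18 for Msx1 and -0.73 to 0.17 for Smad6 (LIF against no growth factor), -0.65 to 0.25 for Smad6 (FGF4 against LIF), -0.81 to 0.10 for Id1, -0.30 to 0.10 for Id2, -0.93 to 0.015 for Id3 and -0.51 to 0.47 for Smad6 (Mp1 against control shRNAs), and -0.71 to 0.27 for Smad6 (Mp1 shRNAs against LIF).

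Counts of target genes called were 2 in place of 4 for FGF4 against LIF with no detection filter. In that setting 2084 of 31336 features were called, against 2212 of 14103 in the main fit. With 1 array left out the counts of target genes also changed, in this comparison and in those of Mp1 shRNAs with control shRNAs and with no growth factor. The number of all features called changed too, and a group left with 1 array takes its spread from the other groups. Counts of pathway genes for FGF4 against no growth factor were 5, but 10 with array weights and 10 with only the 4 arrays compared (2 to 7 with 1 array left out), where 15.6%, 29.2% and 27.4% of all features were called. For FGF4 against LIF they were 4, but 8 with weights, 7 with 4 arrays and 9 with a replicate block (2 to 8), where 15.7%, 21.4%, 19.0% and 21.8% of all features were called. For Mp1 shRNAs they were 0 to 1 against control shRNAs, 3 to 9 against no growth factor, and 5 against LIF, but 2 with 4 arrays (3 to 7), where 19.4% and 4.98% of all features were called.

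With the replicate block on shRNA number over the 6 control arrays, the counts of target genes were 5 for FGF4 against no growth factor, 0 for LIF against no growth factor and 4 for FGF4 against LIF, the same as without it, and the pathway count for FGF4 against no growth factor was 6. No paired analysis was possible for the Mp1 shRNA comparisons because those arrays share no shRNA number with the control arrays. With 2 arrays a group, several probes near background and no BMP-free group, small differences could not be detected. Msx2 and Smad7 were at background, and the labels of the LIF and no-factor arrays are in doubt from Socs3.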
